A study of Mus musculus with 11 samples.

Results

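The metalloproteases of the MMP, ADAM and ADAMTS families, with the ADAMTS-like proteins, were followed in sorted mesenchymal cells of the mouse lung after surgery. Genes were taken by symbol, as Mmp, Adam, Adamts or Adamtsl followed by a number and at most 1 letter, with Adam12 left out. Of 24411 gene symbols counted, 79 met this rule: 23 MMP, 32 ADAM, 19 ADAMTS and 5 ADAMTSL genes. Those that reached 1 CPM (counts per 1000000 counts, scaled by TMM factors) in at least 3 of the 11 libraries are reported, 63 in all, made up of 18 MMP, 21 ADAM, 19 ADAMTS and 5 ADAMTSL genes. The other 16 were too low: Adam2, Adam3, Adam7, Adam18, Adam24, Adam25, Adam26a, Adam26b, Adam32, Adam34, Adam39, Mmp1a, Mmp1b, Mmp7, Mmp20 and Mmp21. None of these 16 was at 0 in every library.

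The mice were of the C57BL6 strain and had undergone either pneumonectomy (PNX), an operation that takes out part of the lung, or a sham operation, and their lungs were taken 7 or 14 days later. There were 3 PNX and 3 sham libraries of day 7, and 3 PNX and 2 sham libraries of day 14. They were sorted for the absence of EpCAM, CD45 and CD31, which epithelial, blood and endothelial cells carry, so the sort kept every remaining cell type and not fibroblasts alone. Genotype beyond the strain, age and sex are not given in the sources used here. The comparisons ask which genes differ in these cells between PNX and sham lungs at each day, and whether that difference changes between the days.

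MMPs are zinc-dependent proteases, secreted or held at the cell surface, that cut collagens, elastin, proteoglycans and other matrix proteins. They are made as inactive precursors and are held in check by the tissue inhibitors of metalloproteinases (TIMPs). ADAMs sit in the cell membrane and release the outer part of growth factors, cytokines and receptors, while the secreted ADAMTS proteases cut proteoglycans, trim procollagens or act on fibrillin microfibrils. ADAMTS-like proteins share the accessory domains of ADAMTS proteases but lack the protease domain.

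The PNX libraries of day 7 held 2963341 to 7614122 counts and the sham libraries of day 7 held 4082935 to 8362119, while the PNX libraries of day 14 held 4733716 to 7895688 and the 2 sham libraries of day 14 held 2539628 and 9008592. The labels do not say whether replicates came from separate mice, so a p-value here reflects library-to-library spread only, part of which can be technical. Olfactory and vomeronasal receptor genes, a measure of background, took the largest share of counts in sham day 14 replicate 1 (1606 CPM of all counts), PNX day 7 replicate 2 (1195) and sham day 7 replicate 2 (635.1). The summed level of 8 fibroblast markers was 12810 to 18750 CPM in PNX at day 7, 16470 to 32020 CPM in sham at day 7, 17080 to 22990 CPM in PNX at day 14, and 9335 and 16520 CPM in sham at day 14. The 7 leukocyte markers, none of them at 0 in any library, summed to 24.0 to 36.7 CPM in PNX at day 7, 21.5 to 86.1 CPM in sham at day 7, 28.9 to 35.3 CPM in PNX at day 14, and 170.5 and 173 CPM in sham at day 14. The 10 epithelial markers summed to 958 to 2571 CPM in PNX at day 7, 214 to 13400 CPM in sham at day 7, 7942 to 17940 CPM in PNX at day 14, and 13530 and 3142 CPM in sham at day 14.

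Mmp3 and Mmp2 were the most abundant genes of the family. Per kilobase of exon, Mmp3 stood highest with 747 CPM per kb, followed by Mmp2 (230.3), Adamts1 (90.5), Adamts2 (39.9), Mmp23 (36.4), Mmp19 (27.5), Adam10 (26.3), Adam9 (25.9), Mmp14 (19.3) and Adam17 (14.5). The 23 MMP genes together made up 2090 to 2377 CPM in PNX at day 7 and 2401 to 3972 CPM in sham at day 7, with no overlap between the groups. At day 14 they made up 1878 to 3513 CPM in PNX and 1266 and 2957 CPM in sham, which overlapped. In RNA from sorted bulk cells, fewer cells of a type and less RNA per cell cannot be told apart.

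**Figure D1:**
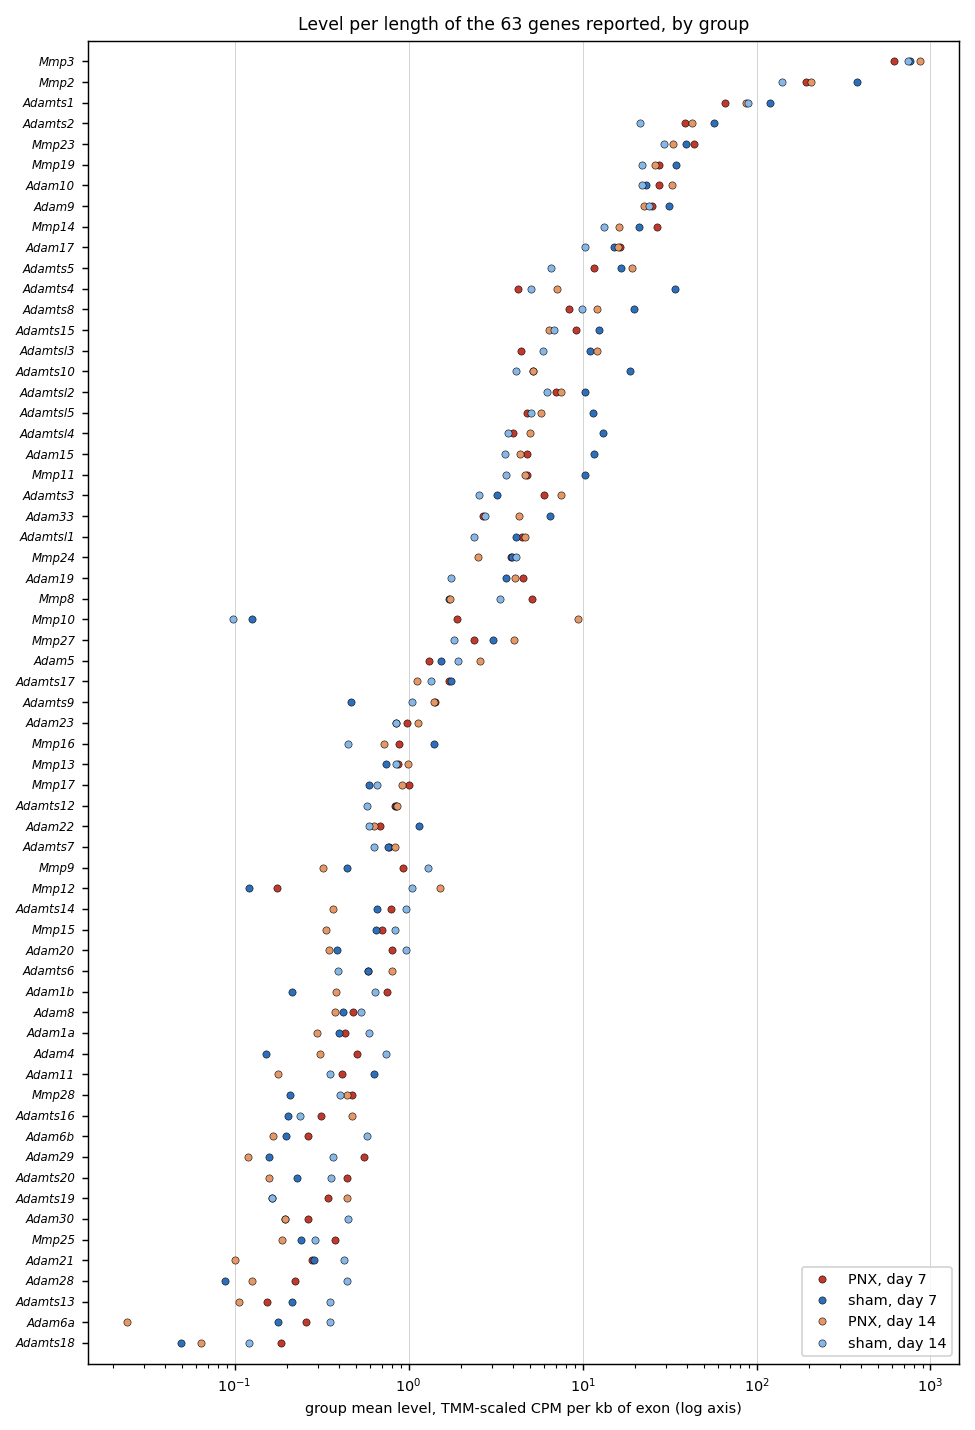
Mean level of each of the 63 reported genes in the 4 groups, in TMM-scaled CPM per kb of exon on a log axis; each point is the mean of 1 group. Mmp3 and Mmp2 stand highest, and Mmp10 has the 2 PNX groups far to the right of both sham groups.

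No gene of the family passed the threshold of an adjusted p of 0.05 in any of the 6 comparisons. The test was edgeR's quasi-likelihood test with Benjamini-Hochberg adjustment over all 16011 genes, 63 family members among them: 61 of the reported genes plus Adam25 and Adam34, while Adam6a and Adam6b were too low to be tested. For PNX against sham at day 7, 0 of 63 members were called, against 0.0375% of all genes. At an unadjusted p under 0.05 there were 15 of 63 (23.8%), against 12.7% of all genes, with 4 higher (4.66% of all genes) and 11 lower (8.07% of all genes). DESeq2 called 6 members at day 7, Adamts9 as higher and Adam33, Adamts4, Adamts8, Adamts10 and Adamtsl4 as lower. Over all 16011 genes DESeq2 called 132 higher and 325 lower at day 7. Voom with limma called 5, Adamts9 as higher and Adam33, Adamts10, Adamtsl4 and Mmp11 as lower. Over all 16011 genes voom called 577 lower at day 7, and more genes higher than the 132 of DESeq2. Both tools thus called many genes outside the family at this day. At day 14, 0 of 63 members were called by edgeR, against 0.00625% of all genes, and 6 (9.52%) had an unadjusted p under 0.05, against 6.81% of all genes. Of these, 5 were higher (3.19% of all genes) and 1 was lower (3.63% of all genes). DESeq2 and voom each called 0 members at day 14, where over all genes DESeq2 called 65 higher and 44 lower and voom called 0. Counts at an unadjusted p moved with single libraries: at day 7 the count was 9 of 63 without sham day 7 replicate 3. No such count is given for fits without a sham library of day 14, as 1 library of that group remained. For fits with a library left out, here and below, the share of all genes at this p was not computed.

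The direction of the differences was mixed at both days. At day 7, 35 of the 63 members were higher and 28 lower in PNX, with a median log2 fold change of 0.11, against 0.03 over all genes. At day 14, 38 were higher and 25 lower, with a median of 0.26, against -0.07 over all genes. Groups did not overlap for 6 members higher and 5 lower at day 7, against 9.95% and 9.57% of all genes (9.52% and 7.94% of the members), and for 8 higher and 1 lower at day 14, against 9.57% and 8.28% of all genes (12.7% and 1.59% of the members). Without TMM factors the median over all genes moved to 0.21 at day 7 and to -0.26 at day 14.

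**Figure D2:**
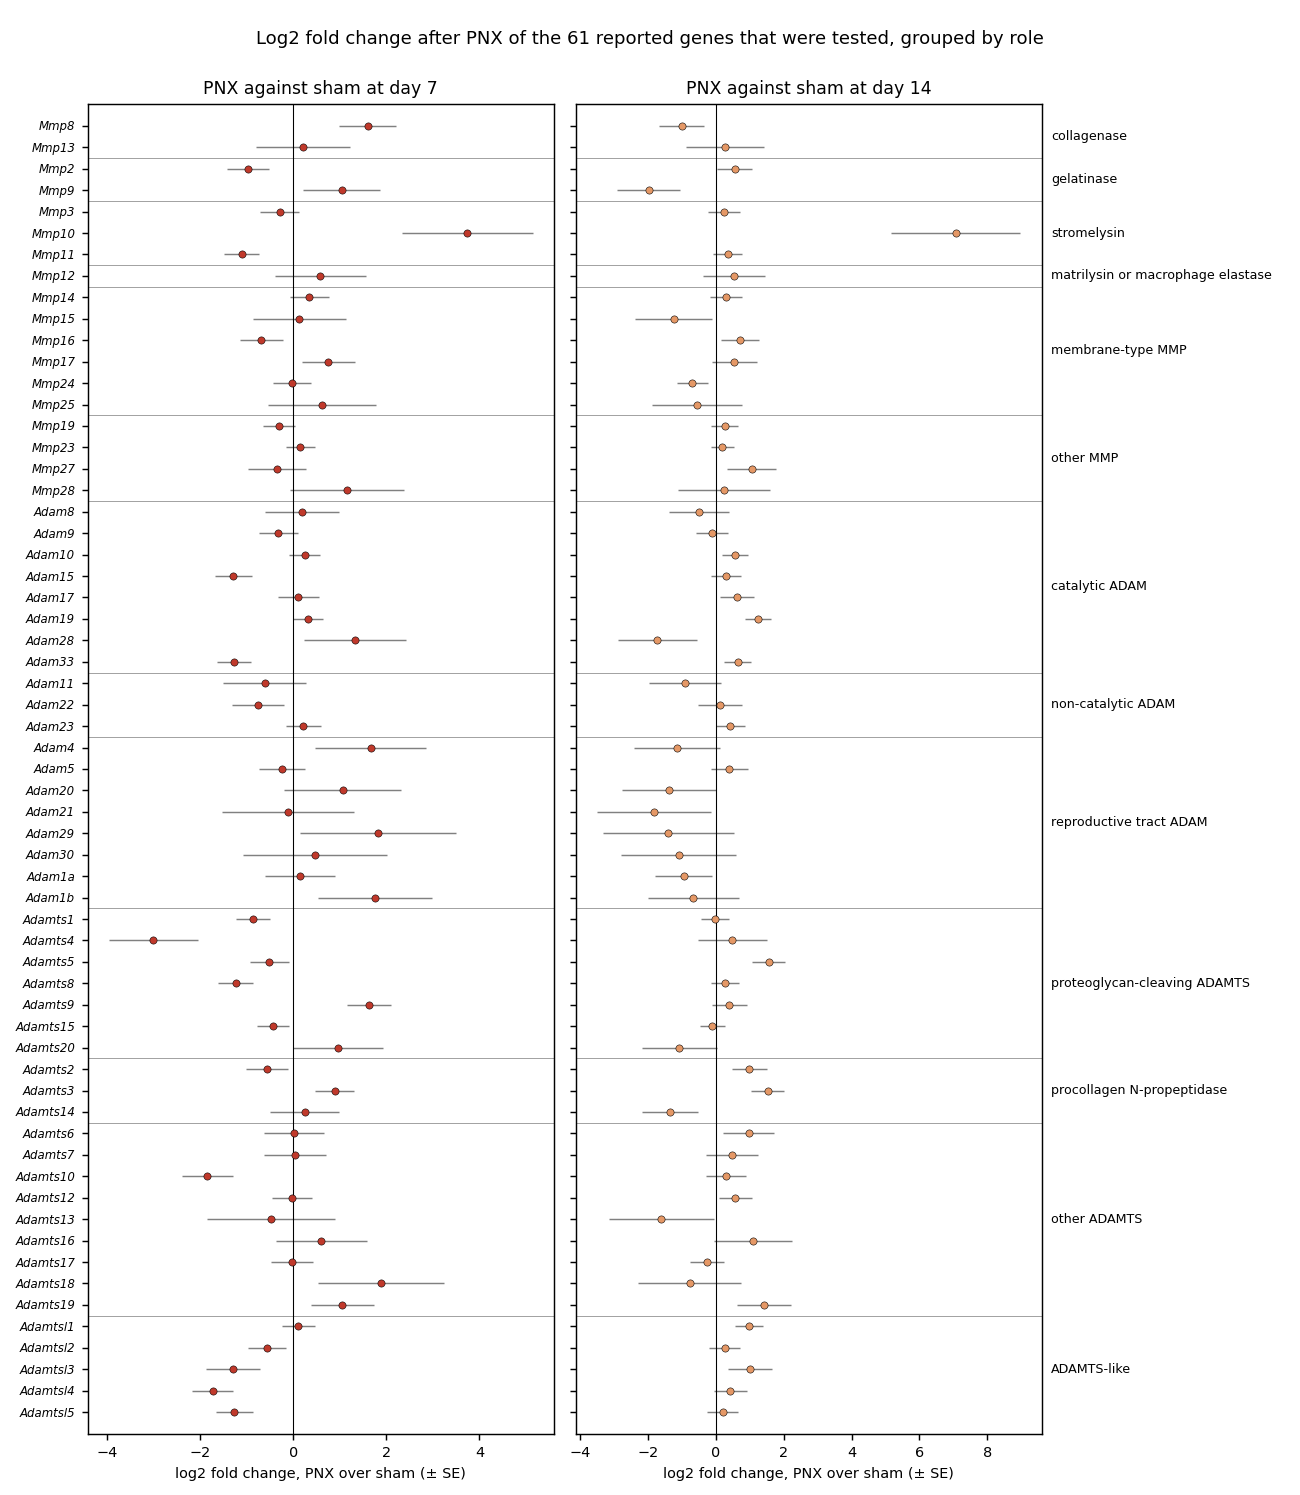
Log2 fold change with SE for PNX over sham at day 7 (left) and day 14 (right) of the 61 reported genes that were tested, ordered by role. Points right of 0 are higher in PNX; 4 of 5 ADAMTS-like genes lie left of 0 at day 7 and all 5 right of 0 at day 14, and no point passed the adjusted threshold.

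Of the 23 MMP genes, 10 lie side by side in 427.1 kb of chromosome 9 (mm10, chr9:7272514-7699585), in the order Mmp13, Mmp12, Mmp1b, Mmp3, Mmp1a, Mmp10, Mmp8, Mmp27, Mmp20 and Mmp7. These neighbours differed in level from the most abundant gene of the family to 4 that were too low to be reported. A binding motif of AP-1 transcription factors is a known feature of promoters of several MMP genes. The letters TGANTCA, which read the same on both strands, were searched in the RefSeq promoter windows (GRCm38.p6, 250 bases before to 50 after each start). They were present in 2565 of all 32851 windows (7.81%) and in 13 of the 54 windows of family members (24.1%), which belonged to 13 of the 49 members with a window. Of the 10 genes on chromosome 9 they were found for all except Mmp8 and Mmp27; the other genes holding them were Adam1b, Adam19, Adam20, Adam25 and Adam29. A match describes the letters only. The 250 bases before the start are shown for the 4 genes of this stretch whose values follow, with the motif in capitals, on the plus strand. They are chr9:7445572-7445821 for Mmp3, chr9:7502092-7502341 for Mmp10, chr9:7347124-7347373 for the second start of Mmp12, and chr9:7558179-7558428 for Mmp8.
Mmp3: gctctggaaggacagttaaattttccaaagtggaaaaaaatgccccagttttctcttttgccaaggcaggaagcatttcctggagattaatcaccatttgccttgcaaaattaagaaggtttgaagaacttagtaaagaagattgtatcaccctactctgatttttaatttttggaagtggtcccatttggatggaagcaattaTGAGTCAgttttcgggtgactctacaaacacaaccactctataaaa
Mmp10: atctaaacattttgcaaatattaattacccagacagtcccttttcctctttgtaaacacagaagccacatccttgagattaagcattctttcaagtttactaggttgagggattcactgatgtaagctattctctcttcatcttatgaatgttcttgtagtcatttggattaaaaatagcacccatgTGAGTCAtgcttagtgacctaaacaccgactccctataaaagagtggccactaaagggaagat
Mmp12: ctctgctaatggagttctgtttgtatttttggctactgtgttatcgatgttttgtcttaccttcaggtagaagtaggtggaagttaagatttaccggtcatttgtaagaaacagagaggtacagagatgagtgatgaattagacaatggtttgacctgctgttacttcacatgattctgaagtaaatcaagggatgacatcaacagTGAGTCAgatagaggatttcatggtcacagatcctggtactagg
Mmp8: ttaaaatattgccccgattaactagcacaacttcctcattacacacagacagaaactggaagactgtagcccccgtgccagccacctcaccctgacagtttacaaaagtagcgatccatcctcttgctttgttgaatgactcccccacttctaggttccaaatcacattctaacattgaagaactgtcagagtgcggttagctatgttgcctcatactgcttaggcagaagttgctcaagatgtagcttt
In Mmp3, Mmp10 and Mmp12 the first base of the match lies 46, 63 and 44 bases before the start. The first start of Mmp12 (chr9:7344147-7344396) and the start of Mmp8 have no match in this window.

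Mmp10, stromelysin 2, which cuts proteoglycans and activates other MMP precursors, was near absent after sham surgery and present after PNX. It lies at chr9:7502352-7510240. It reached 1 CPM in 6 libraries, all of them PNX, so it met the level for reporting only through the group in which it was higher. Its level was 2.04, 6.37 and 1.41 CPM in PNX at day 7, against 0, 0.215 and 0.435 CPM in sham, and 1.12, 41.9 and 5.39 CPM in PNX at day 14, against 0.336 and 0 CPM in sham. Every PNX library was above every sham library at both days, and PNX day 14 replicate 2 held most of the counts of its group. The counts behind these levels were 12, 23 and 11 in PNX and 0, 1 and 3 in sham at day 7, and 6, 267 and 24 in PNX and 1 and 0 in sham at day 14. The ratio of the pooled counts, corrected for depth, was 12.4 at day 7 (95% exact Poisson interval 4.54 to 47.5) and 205 at day 14 (36.5 to 8130), and these intervals cover counting error only. The fitted log2 fold change was 3.74 ± 1.40, adjusted p = 0.271 at day 7, 7.08 ± 1.90, adjusted p = 0.363 at day 14 and 5.41 ± 1.18, adjusted p = 0.0893 in the mean of both days, by edgeR's quasi-likelihood test. With sham counts this low the fitted value depends on the prior count; at day 14 it was 4.66 without PNX replicate 2, 5.66 without sham replicate 2 and 9.62 without sham replicate 1. In the mean of both days Mmp10 passed with DESeq2 (adjusted p = 0.00285) and, in edgeR, without PNX day 14 replicate 1 (adjusted p = 0.0128); over all settings its adjusted p ran from 0.00285 to 0.619.

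Mmp3, stromelysin 1, which degrades proteoglycans, fibronectin and laminin, was the most abundant gene of the family and lies at chr9:7445822-7455975. It had 1300.4, 990.2 and 1055 CPM in PNX and 1604, 796 and 1701 CPM in sham at day 7, and 2216, 1327 and 1147 CPM in PNX and 763 and 1910.1 CPM in sham at day 14. The groups overlapped at both days, and the log2 fold change was -0.29 ± 0.42, adjusted p = 0.824 at day 7 and 0.23 ± 0.47, adjusted p = 0.932 at day 14. The sign turned at day 7 with the background as a covariate (0.08), and at day 14 without PNX day 14 replicate 1 (-0.10), without sham day 14 replicate 1 (-0.30) or without the 3 libraries of highest background (-0.27), and the day 14 value was 1.17 without sham day 14 replicate 2. Mmp11, stromelysin 3, which furin activates inside the cell, was lower in PNX at day 7 without overlap, with 10.2, 13.8 and 15.8 CPM in PNX against 18.7, 30.3 and 36.8 CPM in sham (-1.10 ± 0.38, adjusted p = 0.205). At day 14 its groups overlapped, with 14.4, 8.16 and 16.2 CPM in PNX and 8.73 and 11.3 CPM in sham.

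Mmp12, the macrophage elastase, was higher at day 14 than at day 7 after both operations, though not past the threshold. Its level was 8.39, 21.7 and 2.92 CPM at day 14 after PNX against 2.04, 1.38 and 0.385 CPM at day 7 after PNX, and 6.38 and 8.78 CPM at day 14 after sham against 0.703, 1.93 and 0 CPM at day 7 after sham. All 5 libraries of day 14 stood above all 6 of day 7. The log2 fold change of day 14 against day 7 was 3.14 ± 0.91, adjusted p = 0.513 after PNX and 3.19 ± 0.99, adjusted p = 0.141 after sham, where DESeq2 called it. Without PNX day 14 replicate 2 the value after PNX was 2.17. The exons of Mmp12 and Mmp1b overlap on opposite strands, and without a known strand setting reads of such pairs cannot be told apart. The same holds for Adam15, Adam17, Adam19, Adamts7, Adamts8, Adamts9, Mmp11, Mmp19, Mmp24 and Mmp28, whose exons also overlap a gene on the opposite strand. The 10 markers of macrophages and monocytes summed to 338 to 817 CPM in PNX at day 14 against 139.8 to 206 CPM in PNX at day 7, and to 751 and 832 CPM in sham at day 14 against 32.9 to 684 CPM in sham at day 7, with at most 1 of them at 0 in a library. Lyz2, which alveolar type II cells also express, was at 683, 450.4 and 255 CPM in PNX at day 14 against 116, 67.3 and 59.4 CPM in PNX at day 7. Chil3 was also higher without overlap, with 96.3, 111 and 50.8 CPM against 38.6, 37.7 and 48.6 CPM. Itgam went the other way after PNX, with 0.56, 0.157 and 0 CPM at day 14 against 2.04, 2.77 and 0.642 CPM at day 7. Adgre1, Csf1r, Cd68, Mrc1, Marco, Siglecf and Ccr2 overlapped between the days after PNX. The part of these markers in the Mmp12 difference was not tested.

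**Figure D3:**
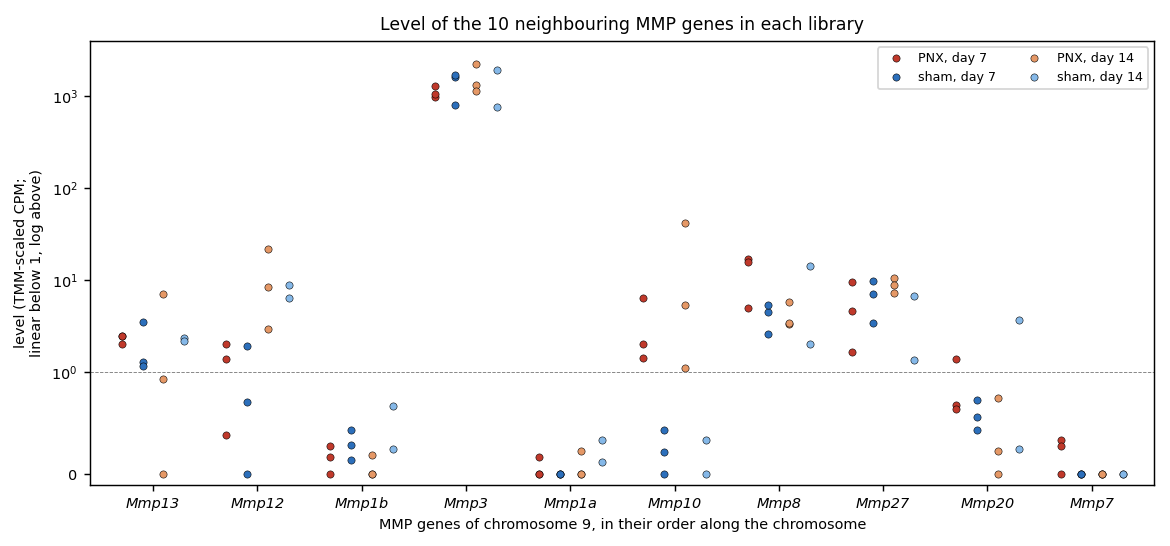
Level of the 10 neighbouring MMP genes of chromosome 9 in each library, in TMM-scaled CPM (linear below 1, log above), in their order along the chromosome. Mmp10 has the PNX libraries above the sham libraries at both days, Mmp12 has the libraries of day 14 above those of day 7, and Mmp3 is at 763 CPM or more in all 11 libraries.

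Among the collagenases, Mmp8, which neutrophils store, and Mmp13, the main interstitial collagenase of the mouse, were low. Mmp8 had 16.8, 4.98 and 15.7 CPM in PNX and 4.5, 5.37 and 2.61 CPM in sham at day 7, and 3.36, 3.45 and 5.84 CPM in PNX and 2.02 and 14.3 CPM in sham at day 14. PNX replicates 1 and 3 of day 7 and sham day 14 replicate 2 stood high, and the groups overlapped at both days. For day 14 against day 7 after PNX its log2 fold change was -1.58 ± 0.62, adjusted p = 0.714. The 8 neutrophil markers in the table, of 9 listed, summed to 10.9 to 13.9 CPM in PNX and 4.79 to 11.6 CPM in sham at day 7, and to 4.87 to 8.02 CPM in PNX and 52.1 and 68.8 CPM in sham at day 14. The single markers did not go 1 way at day 7. S100a9 was higher in PNX without overlap, with 3.06, 3.6 and 2.44 CPM against 0.562, 1.5 and 1.16 CPM in sham. The granule gene Camp was near 0 in both groups, with 0, 0 and 0.128 CPM in PNX against 0.141, 0.215 and 0.145 CPM in sham. Ltf overlapped, with 1.19, 0.831 and 1.67 CPM in PNX and 6.75, 2.15 and 0.145 CPM in sham, as did S100a8, Csf3r, Cxcr2, Retnlg and Ngp. The part of these markers in the Mmp8 values was not tested. Mmp13 ranged from 0 to 7.06 CPM over the 11 libraries. Mmp1a and Mmp1b, the mouse counterparts of human MMP1, were below 1 CPM in every library.

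Of the gelatinases, which cut denatured collagen and basement membrane collagen, Mmp2 was abundant and Mmp9 low. Mmp2 (chr8:92827291-92853420) had 693, 637 and 629 CPM in PNX against 877, 1179.7 and 1788 CPM in sham at day 7, so that each PNX library was below each sham library. In the day 14 libraries Mmp2 had 943, 738 and 407 CPM in PNX and 192 and 757 CPM in sham, which overlapped. The log2 fold change was -0.97 ± 0.46, adjusted p = 0.388 at day 7 and 0.55 ± 0.52, adjusted p = 0.845 at day 14, where it turned to -0.13 without sham day 14 replicate 1 and was 2.00 without sham day 14 replicate 2. Mmp9, a gelatinase of neutrophils and macrophages, had 1.31, 0.314 and 1.8 CPM in PNX against 6.72 and 2.44 CPM in sham at day 14, with no overlap (-1.98 ± 0.93, adjusted p = 0.725; -1.13 without sham replicate 1). The summed levels of the neutrophil and leukocyte markers given above were also highest in these 2 sham libraries, and their part in this value was not tested. At day 7 Mmp9 had 4.42, 4.43 and 1.03 CPM in PNX and 1.41, 1.72 and 1.59 CPM in sham, which overlapped.

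Mmp14, the membrane-type MMP that activates the Mmp2 precursor at the cell surface, was the most abundant of the 6 membrane-type genes. It had 125, 262 and 89.4 CPM in PNX and 67.2, 174 and 134 CPM in sham at day 7, and 88.2, 107 and 94.6 CPM in PNX and 103 and 55.3 CPM in sham at day 14, and the groups overlapped at both days. Of the other 5, Mmp24 ranged from 9.88 to 28.9 CPM and Mmp15, Mmp16, Mmp17 and Mmp25 stayed below 20 CPM in every library. The 6 genes had log2 fold changes between -0.68 and 0.75 at day 7 and between -1.25 and 0.71 at day 14. Mmp19 and Mmp23, a small MMP that lacks the hemopexin domain, were expressed in all libraries, at 49.05 to 164 CPM and 64.03 to 118 CPM, and neither passed the test: the log2 fold change of Mmp19 was -0.31 ± 0.35 at day 7 and 0.25 ± 0.39 at day 14, and that of Mmp23 was 0.16 ± 0.30 and 0.19 ± 0.34.

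The catalytic ADAMs were led by the main sheddases of the cell surface. Adam10, which releases Notch and cadherin fragments, had 146, 91.9 and 166 CPM in PNX and 122, 79.04 and 140.2 CPM in sham at day 7. Adam10 at day 14 had 161, 143 and 176 CPM in PNX against 89.7 and 126 CPM in sham, with every PNX library above both sham libraries (0.57 ± 0.38, adjusted p = 0.799). Adam17, which releases TNF and EGF receptor ligands, had 135, 118 and 93.1 CPM in PNX and 27.5 and 121 CPM in sham at day 14, which overlapped, with sham replicate 1 far below all other libraries. Adam9 lay in the range of 52.1 to 172 CPM over all libraries. The log2 fold change of Adam10, Adam17 and Adam9 at day 7 was 0.25 ± 0.33, 0.11 ± 0.44 and -0.32 ± 0.42.

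Adam33, a mesenchymal ADAM linked in humans to asthma susceptibility, stood lower after PNX at day 7 and lies at chr2:131050591-131063814. It had 11.05, 18.6 and 13.9 CPM in PNX against 34.4, 32.00 and 38.6 CPM in sham, with a wide gap between the groups (-1.28 ± 0.36, adjusted p = 0.138). At day 14 the groups overlapped, with 33.2, 14.8 and 22.03 CPM in PNX and 10.8 and 18.8 CPM in sham (0.64 ± 0.41). The difference of the 2 effects was 1.92 ± 0.55, adjusted p = 0.351. DESeq2 and voom called Adam33 at day 7 (adjusted p = 0.0401 and 0.0158; 0.0158 to 0.567 over all settings). Without sham day 14 replicate 2, which left 1 sham library of that day, the difference of effects was 2.58.

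Adam19, which sheds neuregulins and is strongly expressed in developing mesenchyme, stood higher after PNX at day 14. It lies at chr11:46055992-46147343 and had 27.1, 23.4 and 37.3 CPM in PNX against 12.8 and 12.1 CPM in sham, so that the lowest PNX library was well above both sham libraries (1.23 ± 0.38, adjusted p = 0.442). At day 7 it had 29.1, 41.5 and 26.3 CPM in PNX and 18.98, 30.1 and 28.6 CPM in sham, which overlapped. In the mean of both days its log2 fold change was 0.78 ± 0.25, adjusted p = 0.239. Adam15, a widely expressed membrane ADAM, had 37.2, 28.8 and 21.8 CPM in PNX and 27.97, 72.4 and 114 CPM in sham at day 7 (-1.28 ± 0.40, adjusted p = 0.172). Here 1 sham library lay within the PNX range and 2 lay far above it, and without that low library, sham day 7 replicate 1, edgeR called Adam15 as lower (-1.67, adjusted p = 0.0152; 0.0152 to 0.87 over all settings). Adam8 and Adam28, which leukocytes express, stayed at 7.73 CPM or below in every library.

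The catalytically inactive Adam11, Adam22 and Adam23, receptors of LGI proteins in the nervous system, were low to moderate. Adam23 ranged from 8.57 to 24.6 CPM and Adam22 from 5.76 to 35.96 CPM. ADAMs of the reproductive tract, most of them known from sperm, numbered 21, of which 10 passed the filter on low counts. Their summed level was 13.4 to 36.0 CPM in PNX and 10.3 to 22.3 CPM in sham at day 7, and 14.1 to 24.1 CPM in PNX and 13.3 and 48.4 CPM in sham at day 14. The highest sum in each group with a library of high background lay in that library: PNX day 7 replicate 2, sham day 7 replicate 2 and sham day 14 replicate 1. Of the 10 tested, 8 were higher in PNX at day 7 and 9 lower in PNX at day 14, and edgeR, DESeq2 and voom called 0 of them. With the background as a covariate 5 were higher and 5 lower at day 7, and 3 higher and 7 lower at day 14. Without the 3 libraries of highest background 5 were tested, with 4 higher and 1 lower at day 7 and 4 higher and 1 lower at day 14. Only 5 of the 10 genes and 1 sham library of day 14 remained there, so this cannot tell whether the direction at day 14 turned. Adam5, of this group, was detected in all libraries, at 2.36 to 8.95 CPM.

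The ADAMTS proteases of proteoglycans included the ADAMTS gene of highest level per kb. This gene, Adamts1, which cuts versican and aggrecan, had 344, 317 and 385 CPM in PNX against 406, 459 and 1041 CPM in sham at day 7, and all PNX libraries were below all sham libraries (-0.87 ± 0.37, adjusted p = 0.332). At day 14 it had 415, 509.7 and 467 CPM in PNX and 419 and 523 CPM in sham, with a log2 fold change of -0.02 ± 0.41 whose sign turned under 7 other settings. Its neighbour on chromosome 16, Adamts5 (chr16:85856173-85901828), the main aggrecanase of mouse cartilage, had 93.5, 104 and 181 CPM in PNX and 188, 95.6 and 256 CPM in sham at day 7, which overlapped (-0.51 ± 0.41). At day 14 Adamts5 had 201, 156 and 269 CPM in PNX against 43.3 and 98.2 CPM in sham, with no overlap (1.55 ± 0.49, adjusted p = 0.449). Without sham day 14 replicate 2 this was 2.41, in a range of 1.08 to 2.41 over all settings. The difference of the 2 effects of Adamts5 was 2.07 ± 0.64, adjusted p = 0.355, and DESeq2 called it (adjusted p = 0.0475). Without sham day 14 replicate 2, which left 1 sham library of that day, the difference was 2.97.

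Adamts9, a versican-cutting protease found in developing tissue, was higher in PNX at day 7, with 23.3, 20.2 and 20.8 CPM in PNX against 5.76, 12.7 and 2.75 CPM in sham and no overlap (1.62 ± 0.48, adjusted p = 0.147). It lies at chr6:92772699-92943492, and DESeq2 and voom called it at day 7 (adjusted p = 0.042 and 0.0198; 0.0198 to 0.694 over all settings). Without sham day 7 replicate 2 its day 7 value was 2.29. Adamts9 at day 14 had 12.1, 29.3 and 21.6 CPM in PNX and 12.1 and 19.5 CPM in sham, which overlapped, and the mean of both days gave 1.01 ± 0.35, adjusted p = 0.288. Adamts8 and Adamts4 had the opposite direction at day 7. Adamts8, abundant in lung, had 44.2, 37.7 and 33.8 CPM in PNX against 46.7, 113 and 112 CPM in sham (-1.23 ± 0.38, adjusted p = 0.158), with no overlap and with sham replicate 1 close to the PNX libraries. Adamts4, an aggrecanase, had 23.6, 20.8 and 16.8 CPM in PNX and 14.3, 94.9 and 381 CPM in sham, where 1 sham library held most of the level, 1 lay below all PNX libraries and the groups overlapped (-3.00 ± 0.95, adjusted p = 0.226). Without sham day 7 replicate 1, edgeR called both Adamts8 (-1.55, adjusted p = 0.0278; 0.0278 to 0.709 over all settings) and Adamts4 as lower. Of the 7 genes of this role, 2 were higher and 5 lower in PNX at day 7, and 4 higher and 3 lower at day 14, counts that held with RLE size factors and without TMM factors.

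The procollagen N-propeptidases, which remove the amino-terminal propeptide of fibrillar collagens, are Adamts2, Adamts3 and Adamts14. Adamts3, which also takes part in the activation of the lymphatic growth factor VEGF-C, was higher in PNX at both days and lies at chr5:89677087-89883334. It had 22.6, 25.2 and 49.9 CPM in PNX against 20.9, 12.03 and 19.6 CPM in sham at day 7 (0.89 ± 0.42, adjusted p = 0.381) and 26.5, 50.4 and 45.2 CPM in PNX against 7.39 and 20.1 CPM in sham at day 14 (1.53 ± 0.49, adjusted p = 0.473). At day 14 the value was 1.01 without sham replicate 1 and 2.61 without sham replicate 2. The groups overlapped at neither day, and the mean of both days gave 1.21 ± 0.32, adjusted p = 0.127. In that mean it passed with DESeq2 (adjusted p = 0.0262) and with the background as a covariate (1.42, adjusted p = 0.0173; 0.0173 to 0.568 over all settings). Adamts2 was the more abundant, with 388, 431 and 262 CPM in PNX and 266, 552 and 786 CPM in sham at day 7, and 546, 348 and 292 CPM in PNX and 96.1 and 303 CPM in sham at day 14. Its groups overlapped at both days, with log2 fold changes of -0.57 ± 0.45, adjusted p = 0.681 at day 7 and 0.98 ± 0.52, adjusted p = 0.747 at day 14. The day 14 value was 0.37 without sham replicate 1 and 2.18 without sham replicate 2. Adamts14 stayed in the range of 0.471 to 8.4 CPM.

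Among the other ADAMTS genes, Adamts10, which binds fibrillin microfibrils, had 36.7, 59.5 and 32.8 CPM in PNX and 46.5, 207 and 208 CPM in sham at day 7 (-1.84 ± 0.54, adjusted p = 0.153). Again sham replicates 2 and 3 stood far above the PNX libraries and sham replicate 1 within them, and edgeR called Adamts10 without that library (-2.28, adjusted p = 0.0141; 0.0141 to 0.69 over all settings). At day 14 its groups overlapped, with 51.5, 27.6 and 49.2 CPM in PNX and 15.1 and 53.7 CPM in sham. Adamts19 was low, with 5.44, 3.88 and 5.27 CPM in PNX and 4.08, 0.644 and 2.17 CPM in sham at day 7, and 9.51, 6.91 and 2.25 CPM in PNX and 2.02 and 2.56 CPM in sham at day 14; the groups overlapped at both days (1.24 ± 0.52, adjusted p = 0.412, in the mean of both days). Adamts7 and Adamts12, which cut cartilage oligomeric matrix protein, ranged from 1.59 to 9.02 CPM and from 5.65 to 12.1 CPM. Adamts13, the liver-derived protease of von Willebrand factor, stayed below 4 CPM.

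**Figure D4:**
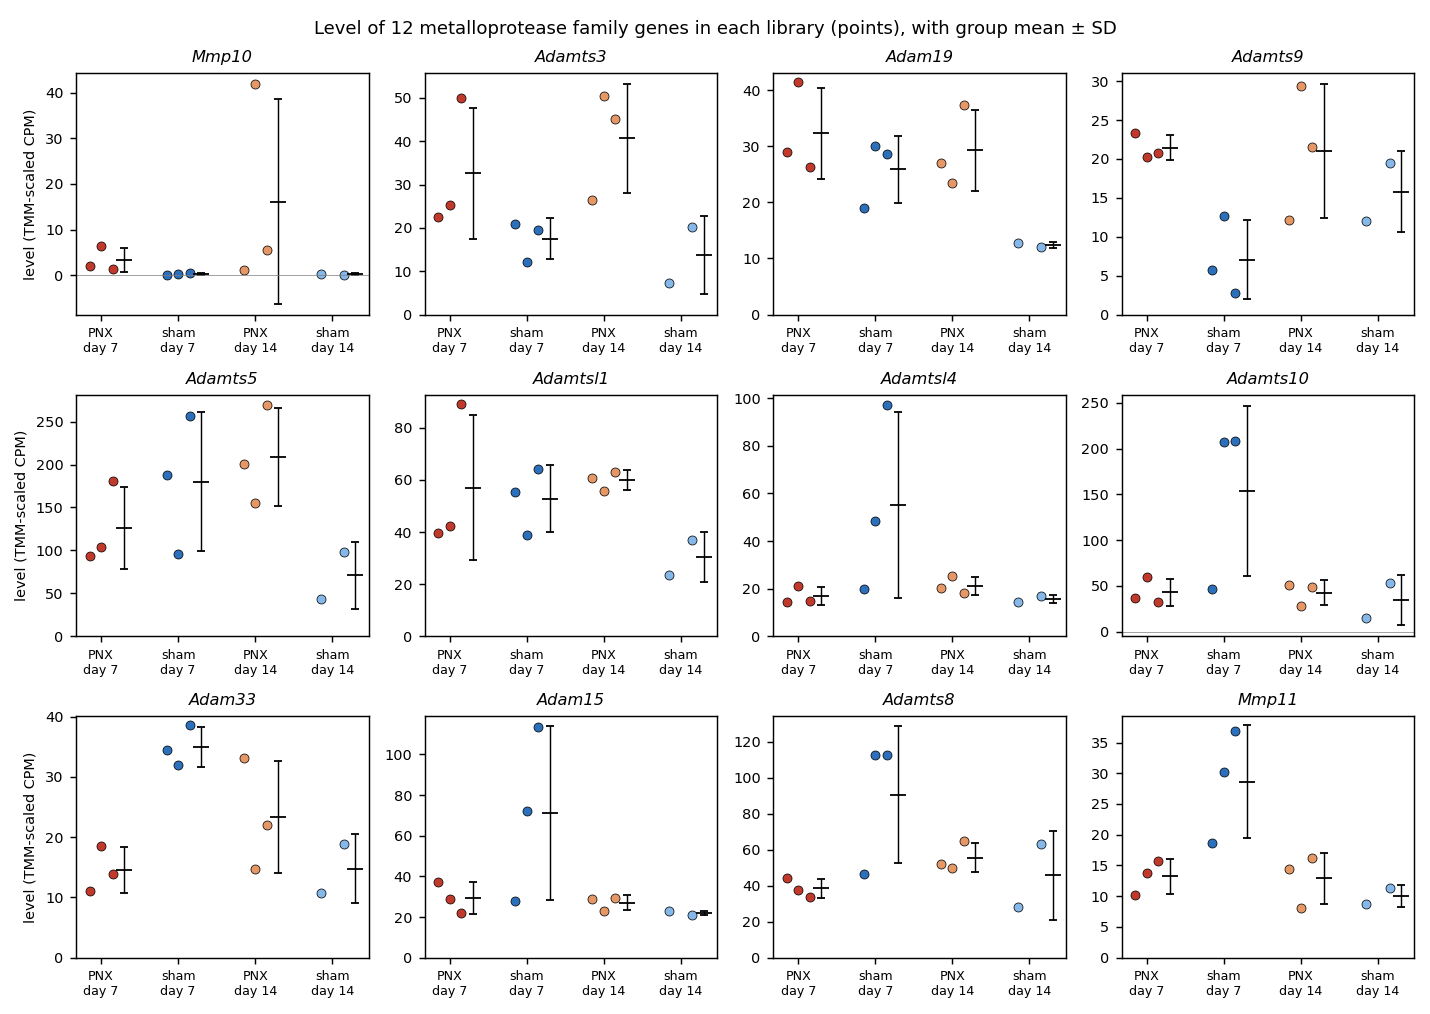
Level of 12 genes in each library (points, TMM-scaled CPM) with mean and SD per group; in each panel PNX stands left of sham, day 7 before day 14. Adamts3 and Mmp10 are higher in PNX at both days, Adam19 and Adamts5 at day 14, and for Adamtsl4, Adamts10 and Adam15 sham replicates 2 and 3 of day 7 stand apart from replicate 1.

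The 5 ADAMTS-like genes, whose products bind fibrillin microfibrils or other matrix, were mostly lower in PNX at day 7 and higher in PNX at day 14, without passing the test. At day 7, 4 of 5 were lower in PNX, with log2 fold changes from -1.73 to 0.11 and a median of -1.26, and at day 14 all 5 were higher, from 0.20 to 1.00 with a median of 0.42. In the edgeR fit of all libraries none was called, while Adamtsl4 was called by other tools and Adamtsl4 and Adamtsl5 without sham day 7 replicate 1. That fit called 39 higher and 386 lower of 15979 genes at day 7. The signs were the same with RLE size factors, without TMM factors, with the GC offset and with the background as a covariate; without the 3 libraries of highest background 4 of 5 were higher at day 14. The median at day 7 moved to -0.59 with that covariate and to -0.83 with the GC offset. Their summed level was 171.5 to 210.1 CPM in PNX and 256 to 461.5 CPM in sham at day 7, and 219.2 to 292 CPM in PNX and 112.9 and 218.6 CPM in sham at day 14.

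Adamtsl4, a fibrillin-binding protein whose human counterpart is mutated in lens dislocation, had the smallest p of the family at day 7. It lies at chr3:95676201-95687917 and had 14.3, 21.04 and 14.9 CPM in PNX and 19.96, 48.5 and 97.3 CPM in sham at day 7 (-1.73 ± 0.44, adjusted p = 0.105). Sham replicates 2 and 3 were far above the PNX libraries and sham replicate 1 lay within them, and without sham replicate 3 the value was -1.03. DESeq2 (adjusted p = 0.0154), voom (0.0268), edgeR without the filter on low counts (0.027) and edgeR without sham day 7 replicate 1 (0.00724) called it, and over all settings its adjusted p ran from 0.00724 to 0.699. At day 14 it had 20.1, 25.1 and 17.98 CPM in PNX and 14.4 and 16.95 CPM in sham, where every PNX library was above both sham libraries by a narrow margin, and the difference of the effects was 2.15 ± 0.66, adjusted p = 0.355. Adamtsl5 had 21.1, 26.03 and 20.7 CPM in PNX and 23.2, 48.3 and 90.8 CPM in sham at day 7 (-1.26 ± 0.40, adjusted p = 0.176), with the same 2 sham libraries high.

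Adamtsl1, a secreted matrix protein also called punctin, had 60.8, 55.7 and 63.2 CPM in PNX against 23.5 and 37.1 CPM in sham at day 14, with no overlap (0.97 ± 0.41, adjusted p = 0.683). Its groups overlapped at day 7, with 39.6, 42.4 and 89.3 CPM in PNX and 55.4, 38.9 and 64.2 CPM in sham, and the mean of both days gave 0.54 ± 0.27, adjusted p = 0.506. Adamtsl3 had 95.9, 69.99 and 114 CPM at day 14 after PNX against 28.4, 22.7 and 52.4 CPM at day 7 after PNX, with no overlap (1.43 ± 0.58, adjusted p = 0.724). It passed when the 2 PNX groups were fitted alone (1.39, adjusted p = 0.0466; 0.0466 to 1 over all settings). Its sham libraries varied widely, with 107, 23.4 and 125 CPM at day 7 and 18.5 and 73.6 CPM at day 14. Adamtsl2, which binds a latent TGF-beta binding protein and fibrillin, ranged from 30.9 to 116 CPM and its groups overlapped at both days.

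The PNX effect did not differ between the days beyond the threshold for any member: 0 of 63 were called, against 0% of all genes. At an unadjusted p under 0.05 there were 14 (22.2%), against 8.76% of all genes, 12 of them with a more positive effect at day 14 (4.16% of all genes) and 2 with a more negative one (4.6% of all genes). This count was 20 of 64 without sham day 7 replicate 2 and 10 of 63 without sham day 7 replicate 3. Adam33, Adamtsl4 and Adamts5, given above, had the smallest p, all at an adjusted p of about 0.35. DESeq2 called 1, Adamts5, and voom 0, while over all genes DESeq2 called 47 as more positive and 55 as more negative. Without sham day 14 replicate 2, which left 1 sham library of day 14, the difference was 2.58 for Adam33 and 2.97 for Adamts5. In the mean of both days 0 of 63 were called, against 0.194% of all genes, 0.137% higher and 0.0562% lower. An unadjusted p under 0.05 was found for 5 (7.94%), against 10.3% of all genes, and all 5 were higher in PNX, against 3.92% of all genes. That count was 11 of 63 without sham day 7 replicate 1 and 8 of 60 without PNX day 7 replicate 2. DESeq2 called 2 there, Adamts3 and Mmp10, and voom 0. Over all genes DESeq2 called 129 higher and 175 lower in that mean, and voom 5 higher and 2 lower.

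Between the days, more members were lower than higher at day 14 after both operations. After sham surgery 27 were higher and 36 lower, where 52.5% of all genes were higher. After PNX 26 were higher and 37 lower, where 45.9% of all genes were higher. After sham, 0 of 63 were called by edgeR, against 0.0187% of all genes, while 16 (25.4%) had an unadjusted p under 0.05, against 14.3% of all genes, 2 higher (6.32% of all genes) and 14 lower (7.94% of all genes) at day 14. This count was 18 of 64 without sham day 7 replicate 2 and 8 of 63 without sham day 7 replicate 3. Groups did not overlap for 2 members higher and 10 lower at day 14, against 12.5% and 11.8% of all genes. The median log2 fold change was -0.31, against 0.05 over all genes. Adam15 had 22.8 and 21.2 CPM at day 14 against 27.97, 72.4 and 114 CPM at day 7 (-1.69 ± 0.47, adjusted p = 0.118), and Adamtsl4 and Mmp11, whose values are given above, had -1.81 ± 0.51, adjusted p = 0.119 and -1.50 ± 0.44, adjusted p = 0.127. Without sham day 7 replicate 3 the value of Adamtsl4 was -1.12, and its difference of PNX effects was 1.46. For all 3 genes the 2 libraries of day 14 lay below all 3 of day 7. DESeq2 called 5, Mmp12 as higher and Adam15, Adamts10, Adamtsl4 and Mmp11 as lower, and voom called 0. Over all genes DESeq2 called 316 higher and 353 lower at day 14 after sham, and voom called 0. EdgeR called 6 without sham day 7 replicate 1 (Adam15, Adamts4, Adamts10, Adamtsl4, Adamtsl5 and Mmp11), all lower. Over all 15979 genes of that fit edgeR called 138 higher and 407 lower. After PNX, 0 of 63 were called, against 0% of all genes, and 4 (6.35%) had an unadjusted p under 0.05, against 6.85% of all genes. Of these, 3 were higher (3.72% of all genes) and 1 was lower (3.13% of all genes) at day 14, and DESeq2 and voom called 0. This count was 1 of 67 without PNX day 7 replicate 1. Groups did not overlap for 5 members higher and 3 lower, against 9.02% and 9.08% of all genes. These comparisons share groups with those of PNX against sham.

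GC content varied with the values at day 7. Across the 61 reported genes tested, the day 7 log2 fold change and the GC content of the longest transcript had a Spearman rho of -0.37, against -0.19 across 15854 genes; genes of 1 library share its depth and GC trend and are not independent, so no p is given. Of the 21 members of highest GC (54.8 to 60.1%), 8 were higher and 13 lower in PNX at day 7 (median log2 fold change -0.49), while of the 19 of lowest GC (38.2 to 46.0%) 12 were higher and 7 lower (median 0.21). At day 14 rho was -0.06 and the 21 members of highest GC had 13 higher and 8 lower. The rank correlation of a library's levels with GC, relative to the mean of all libraries, was -0.12, 0.51 and 0.29 in sham replicates 1, 2 and 3 of day 7. Adamtsl4, Adamts10 and Adam15 stood high in sham replicates 2 and 3. The correlation was 0.14, 0.30 and -0.18 in PNX replicates 1, 2 and 3 of day 7, where the levels of these 3 genes are given above. The part of the GC trend in these values was not tested. With a GC offset in the fit the day 7 log2 fold change was -1.23 for Adamtsl4, -1.38 for Adamts10 and -0.85 for Adam15, against 1.64 for Adamts9, none of them called.

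**Figure D5:**
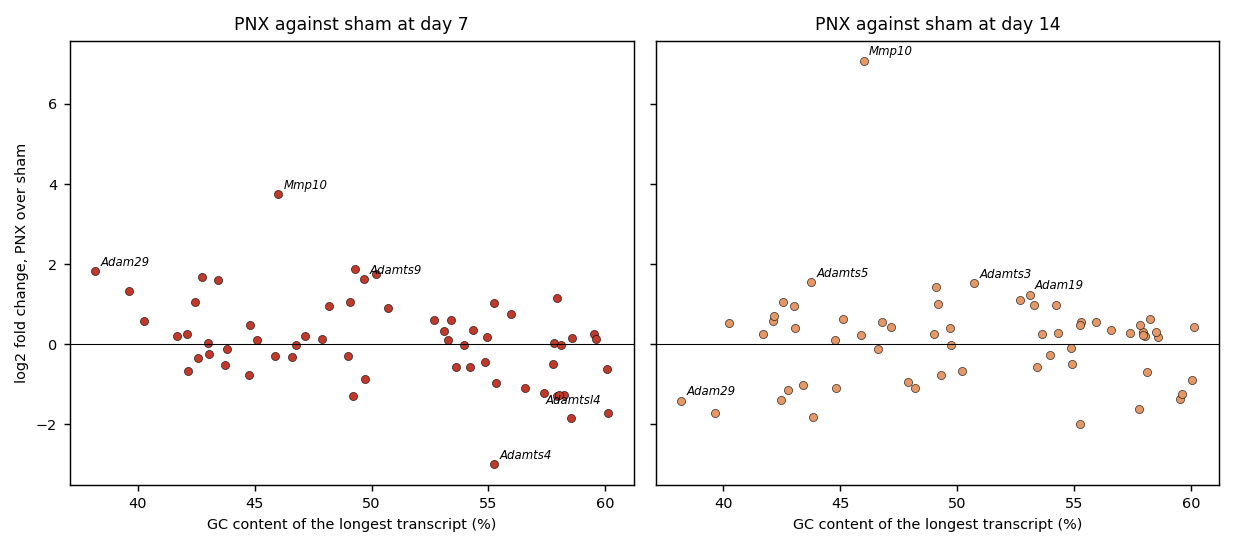
Log2 fold change of PNX over sham at day 7 (left) and day 14 (right) against GC content of the longest transcript in percent; each point is 1 reported gene that was tested. At day 7 the points of high GC content lie mostly below 0, with a Spearman rho of -0.37; at day 14 rho is -0.06.

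Among the inhibitors of these proteases, Timp1 passed the test. Of 8 inhibitors 7 were tested, with 3 higher and 4 lower in PNX at day 7 and 1 called by edgeR, against 0.0375% of all genes. DESeq2 and voom each called 3 at day 7: Timp1 as higher and Reck and Timp3 as lower. Timp1, which inhibits most secreted MMPs, rose at day 7 to 429.9, 399.8 and 387 CPM in PNX, against 82.8, 81.2 and 63.2 CPM in sham (2.42 ± 0.32, adjusted p = 0.00505). At day 14 it had 197, 241 and 144 CPM in PNX and 119.9 and 130.4 CPM in sham, and it was called in the mean of both days (1.53 ± 0.24, adjusted p = 0.0105) except without PNX day 14 replicate 2 (adjusted p = 0.0612; 2.79e-09 to 0.0612 over all settings). Timp3, which is bound to matrix and inhibits Adam17 and the aggrecanases, had 1616, 1672 and 1679 CPM in PNX against 4071, 2774 and 8159 CPM in sham at day 7, all PNX libraries below all sham libraries. Reck, a membrane-anchored inhibitor, likewise had 26.5, 32.7 and 33.02 CPM in PNX against 69.3, 49.8 and 95.7 CPM in sham (-1.22 ± 0.31, adjusted p = 0.107); its adjusted p was 0.0121 with DESeq2 and 0.0139 with voom (0.0121 to 0.571 over all settings). Timp2, which takes part in Mmp2 activation, had 495, 590.3 and 463 CPM in PNX and 624, 566 and 447 CPM in sham at day 7, which overlapped. At day 14, 6 of the 7 were higher and edgeR, DESeq2 and voom each called 0. In edgeR 2 had an unadjusted p under 0.05, against 6.81% of all genes. Timp4 (1.23 ± 0.47, adjusted p = 0.61) and Tfpi2 (0.92 ± 0.42, adjusted p = 0.708) had the smallest p.

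Of 21 activators and partners 19 were tested, with 4 higher and 15 lower in PNX at day 7, 10 higher and 9 lower at day 14, and edgeR called 0 at either day. At an unadjusted p under 0.05 there were 3 at day 7 and 0 at day 14, against 12.7% and 6.81% of all genes. At day 7 DESeq2 called 1, Pcolce2, and voom called 2, Pcolce2 and Pcsk6, all lower, and at day 14 both called 0. Over all genes DESeq2 called 325 lower and voom 577 lower at day 7. Pcolce2, an enhancer of procollagen C-proteinase, had 238, 243 and 223 CPM in PNX against 548, 450.2 and 549 CPM in sham at day 7 (-1.14 ± 0.31, adjusted p = 0.123), with no overlap; its adjusted p was 0.00242 with DESeq2 and 0.0173 with voom (0.00242 to 0.53 over all settings). Rhbdf1, a partner that Adam17 needs to mature, had 25.7, 30.7 and 20.6 CPM in PNX and 28.1, 73.7 and 95.98 CPM in sham (-1.36 ± 0.41, adjusted p = 0.155), where sham replicate 1 lay within the PNX range, and edgeR called it without that library (-1.73, adjusted p = 0.0188; 0.0188 to 0.76 over all settings). At day 14 the smallest p were those of Tspan5, a tetraspanin that escorts Adam10 (0.78 ± 0.37, adjusted p = 0.729), and Pcsk5, a proprotein convertase (0.72 ± 0.40, adjusted p = 0.758). Without sham day 14 replicate 2 their log2 fold changes were 1.54 and 1.86.

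Related metalloproteases numbered 10, of which 6 were tested; 5 were higher and 1 lower in PNX at each day, and edgeR called 0. At an unadjusted p under 0.05 there were 2 at day 7 and 4 at day 14, against 12.7% and 6.81% of all genes. DESeq2 called 0 at day 7 and 1 at day 14, and voom 0 at both. Over all genes DESeq2 called 65 higher and 44 lower at day 14. Bmp1, the procollagen C-proteinase, had 129, 133 and 98.2 CPM in PNX against 33.6 and 44.5 CPM in sham at day 14, with no overlap (1.61 ± 0.37, adjusted p = 0.128), and it was called by DESeq2 (adjusted p = 0.00166) and with the background as a covariate (adjusted p = 0.0444; 0.00166 to 0.657 over all settings). Pappa, which cuts insulin-like growth factor binding proteins, had 15.1, 44.3 and 25.2 CPM in PNX against 11.1 and 6.71 CPM in sham (1.69 ± 0.49, adjusted p = 0.385). Its relative Pappa2 had 10.4, 13.8 and 6.3 CPM in PNX against 2.81, 4.72 and 2.75 CPM in sham at day 7 (1.57 ± 0.51, adjusted p = 0.187). Mme, the peptidase neprilysin, was on the other side of 0 at day 7 (-0.88 ± 0.39, adjusted p = 0.359).

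All 20 matrix substrates of the list were tested, with 12 higher and 8 lower in PNX at day 7, 17 higher and 3 lower at day 14, and edgeR called 0 at either day. At an unadjusted p under 0.05 there were 3 of 20 at day 7 and 5 of 20 at day 14, against 12.7% and 6.81% of all genes. DESeq2 and voom each called 1 at day 7, Tnc, and 0 at day 14. Tnc, the matrix glycoprotein tenascin C, had 134, 325 and 73.5 CPM in PNX against 16.7, 42.5 and 27.7 CPM in sham at day 7 (2.61 ± 0.52, adjusted p = 0.0672), with no overlap. It was called by DESeq2 (adjusted p = 9.16e-05), by voom (0.012) and in edgeR without the filter on low counts (0.00623), with the replicate block, alone (0.033) or with the GC offset (0.0282), and on leaving out PNX day 7 replicate 3 (0.0245) or sham day 7 replicate 1 (0.0458), in a range of 9.16e-05 to 0.239 over all settings. PNX day 7 replicate 2 was highest, and without it the log2 fold change was 1.81. Fbn2, fibrillin 2, had 2.45 ± 0.97, adjusted p = 0.305. At day 14 Col3a1, a fibrillar collagen, had 4604, 4608 and 3684 CPM in PNX against 1252 and 2568 CPM in sham (1.17 ± 0.45, adjusted p = 0.615; 1.93 without sham replicate 2), and Eln, the elastin gene, had 1339, 773 and 850.3 CPM in PNX against 372 and 341 CPM in sham (1.47 ± 0.63, adjusted p = 0.691). Of 24 membrane substrates 23 were tested, with 12 higher and 11 lower at day 7, 14 higher and 9 lower at day 14, and edgeR called 0. At an unadjusted p under 0.05 there were 7 at day 7 and 1 at day 14, against 12.7% and 6.81% of all genes. At day 7 DESeq2 called 3, Cdh2, Ereg and Il6ra, and voom called 2, Cd44 and Il6ra. At day 14 DESeq2 called 1, Jag1, and voom 0. Apart from the genes voom called higher at day 7, the counts of all genes that these tools called at each day are given above. For those genes only a lower bound is given. Il6ra, a receptor shed by Adam17, had 19.2, 19.9 and 30.8 CPM in PNX against 70.00, 78.2 and 101 CPM in sham at day 7 (-1.83 ± 0.41, adjusted p = 0.0783). It was called by DESeq2 (adjusted p = 0.00229), by voom (0.00757) and in edgeR without the filter on low counts (0.0208) and without sham day 7 replicate 1 (0.0247), sham day 14 replicate 1 (0.0265) or sham day 14 replicate 2 (0.0206), in a range of 0.00229 to 0.342 over all settings. Ereg, an EGF receptor ligand, had 12.9, 19.1 and 6.68 CPM in PNX against 3.23, 3.22 and 5.22 CPM in sham (1.70 ± 0.45, adjusted p = 0.12), and DESeq2 called it (adjusted p = 0.0261; 0.0261 to 0.392 over all settings). At day 14 Jag1, a Notch ligand, had 76.3, 54.5 and 64.7 CPM in PNX against 25.5 and 27.4 CPM in sham (1.30 ± 0.33, adjusted p = 0.221), and DESeq2 called it (adjusted p = 0.0243; 0.0243 to 0.811 over all settings), while Notch2 had 0.60 ± 0.32, adjusted p = 0.747.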

How the data were processed

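Sorted lung mesenchymal cells gave RNA that was purified on columns for low amounts and turned into libraries with a low-input kit, per the labels. The authors deposited raw read counts per gene symbol, 1 column for each of 11 libraries, and bcl2fastq 2.20.0.422 and the mm10 build are named, per the submitters' processing notes. The aligner, counting tool, annotation and strand setting are not given in the sources used here. The values were checked to be whole numbers, and 1371 symbols had no count.

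Groups came from the labels. In edgeR 4.0.16 (R 4.3.3), 16011 genes passed filterByExpr and 8400 did not. After TMM scaling, all 11 libraries entered 1 robust quasi-likelihood model with a mean per group, which leaves 7 residual degrees of freedom, with Benjamini-Hochberg adjustment of the F-test p over every gene tested and a threshold of 0.05. Adjusted p is from edgeR where no other tool is named. A value with ± is a log2 fold change and its standard error, taken as |log2 fold change| over the root of F. CPM are scaled by TMM factors. Steps were tested on simulated data.

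Members, gene lists and markers were chosen with earlier results of these data known. Named genes are the 6 members of smallest p in each PNX effect (day 7, day 14, mean of the days), 3 in each other comparison, the 6 of highest level, and in each list those called and the 2 of smallest p per day; other genes named were chosen after their values were seen. Alternatives were DESeq2 1.42.0, voom with limma 3.58.1, other scalings and filters, only the groups compared, a replicate block and each library left out; a background covariate, a GC offset and leaving out the 3 libraries of highest background were added after seeing the data. No label says whether the replicate numbers pair the samples, and they were not taken as a pairing. All 79 members were matched to GENCODE M21, and the exon overlap of 1 member is not reported here. Figures were drawn with matplotlib 3.10.9.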

Additional observations from a re-analysis of the deposited data

How the results depend on the processing

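The count of members past the threshold was 0 in all 6 comparisons in the edgeR fit of all libraries and left that value under some settings. At day 7 it was 6 with DESeq2, 5 with voom, 1 without the filter on low counts, and 0 to 6 with each library left out in turn. The highest of these last counts came without sham day 7 replicate 1, where edgeR called 39 higher and 386 lower of 15979 genes. Without the filter edgeR called 44 higher and 134 lower of 23040 genes. At day 14 the count of members was 0 under every setting run. In the mean of both days it was 2 with DESeq2, 1 with the background covariate and 0 to 1 with each library left out. For the difference of the effects it was 1 with DESeq2, and 0 with each library left out except those of sham day 14. The fits without a sham library of day 14 were run but left 1 library in that group, so their counts are not given for this comparison. For day 14 against day 7 after PNX it was 1 with only the groups compared, where 50 genes were called higher and 33 lower. After sham it was 5 with DESeq2 and 0 to 6 with each library left out except those of sham day 14. The cause was not tested.

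Of 865 log2 fold changes of named members under other settings, 824 kept direction and call, 28 became called and 13 turned sign. Adamts1 at day 14 turned to 0.0554 without the filter on low counts and ranged from -0.18 to 0.29 with each library left out, being positive without sham day 14 replicate 2 (0.29), PNX day 14 replicate 1 (0.07), PNX day 7 replicate 1 (0.03), replicate 2 (0.0018) or replicate 3 (0.01), or sham day 7 replicate 2 (0.02). Mmp3 turned to 0.0807 at day 7 with the background covariate, and at day 14 to -0.27 without the 3 libraries of highest background, -0.10 and -0.30 when PNX replicate 1 or sham replicate 1 of that day was left out, with 1.17 as the highest value of this kind. Mmp2 at day 14 turned to -0.095 without those 3 libraries and ranged from -0.13 (without sham day 14 replicate 1) to 2.00 (without sham day 14 replicate 2) with each library left out. Of 482 values of listed genes, 459 kept direction and call, 22 became called and 1 lost its call. The reported genes numbered 63, and 54 to 72 under other CPM thresholds.

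Of 15 pairs of libraries with the same number, 2 had deviations correlated over 0.1 (r from -0.48 to 0.56). Both were PNX and sham of day 7, with r = 0.56 for replicate 2 and 0.24 for replicate 3, against -0.15 for replicate 1. These values cannot settle whether the numbers mark a pairing, and the main fit used none because no label names one. With the replicate block 0 members were called in each comparison, and the log2 fold change of Adamtsl4 at day 7 was -1.58 and that of Mmp10 in the mean of both days was 5.32 (adjusted p = 0.0518). The median standard error of members was 0.57 at day 7 and 0.65 at day 14, and genes under 1 CPM rest on few counts.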
